A study of Homo sapiens with 10 samples.

Results

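The 3 drug-adapted colonies BR8, BR10 and BR16 of the thyroid cancer line TPC-1 were compared with TPC-1 cells kept in the solvent DMSO, and the account follows the genes that all 3 colonies shared in direction. TPC-1 is an established line from a papillary carcinoma of the thyroid, and every group has its genotype, a CCDC6-RET fusion. The colonies grew in 5 µM of the RET inhibitor BLU667, also named pralsetinib, for more than 50 days by the sample labels and for more than 5 months by the design text of the series. DMSO was given for 24 h. A further group of TPC-1 cells had 5 µM BLU667 for 24 h and is used below only to place the colony levels. Each group had 2 libraries, described as biological replicates, so the comparison rests on 8 of the 10 libraries of the series, chosen by their labels: 6 of colonies and 2 of DMSO. Whether the 2 libraries of a colony came from separate cultures is not stated, and p-values then measure the spread between these libraries. Each colony grew out of the same line, so that the colonies represent 3 isolates of 1 tumour model, and BLU667 was present in all of them.

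A RET fusion joins the kinase domain of RET to a partner that makes it dimerise, and the fused kinase signals through RAS, RAF, MEK and ERK without its ligand. ERK raises the transcription of its own inhibitors, the Sprouty, Spred and dual-specificity phosphatase genes, and of ETS and AP-1 factors that drive cells into S phase. Cells that live on under a kinase inhibitor are known to do so by other receptors and their ligands, by secreted cytokines and matrix, or by a slower cell cycle.

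RNA abundance is given as FPKM, fragments scaled by gene length and by library depth, as the authors deposited it. A gene was tested when it had at least 1 FPKM in at least 2 libraries, which 13927 of 58735 genes did. The libraries held 15243703 to 21904245 reads in genes, and replicate libraries correlated across genes with r of 0.978 to 0.989. Differences are on the log2(FPKM + 1) scale, given as the mean of the 3 colonies minus DMSO ± SE, with limma's adjusted p, and a gene is called at an adjusted p below 0.05. The SE reflects the spread between libraries (median 0.10) and not that between colonies. Adding 1 FPKM understates the change of low genes. The 2 DMSO libraries differed from each other with the GC content of genes (Spearman correlation -0.62 across genes), and all 3 colony contrasts share those 2 libraries. With each library's GC trend removed, 2548 of the 2768 shared genes described below were still shared in the same direction. A dagger marks a gene whose exons overlap those of another gene, because the libraries did not keep strand and such reads cannot be told apart.

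The labelled cell type was checked against markers. Of 6 thyroid follicular markers, PAX8† and FOXE1 reached 1 FPKM in at least 2 libraries, and the other 4, among them TG, TSHR and NKX2-1, did not. Their summed level was 54.1 to 98.5 FPKM in the colony libraries, against 38.9 to 57.0 FPKM in DMSO. Of 5 epithelial markers, KRT8† and KRT18† passed, and the sum was 45.1 to 110 FPKM in the colony libraries, against 48.9 to 62.8 FPKM in DMSO. No marker of immune, endothelial, erythroid or thyroid C cells passed. The summed level of 7 fibroblast markers was 1.95 to 9.61 FPKM in the colony libraries, against 27.9 to 29.5 FPKM in DMSO. Most of the DMSO sum lay in PDPN, which encodes the membrane glycoprotein podoplanin. Of the 7 fibroblast markers, 4 reached 1 FPKM in at least 2 libraries. In the mean of the colonies, 2 of these were called higher and 2 lower, beside 22.9% and 26.3% of all tested genes. RET itself had 7.24 and 7.04 FPKM in BR8, 7.87 and 7.55 FPKM in BR10 and 8.04 and 7.94 FPKM in BR16, against 6.9 and 6.92 FPKM in DMSO. The level did not pass the test in the mean of the colonies (0.12 ± 0.06, adjusted p 0.125, limma), and passed with quantile normalisation (0.17, adjusted p 0.0473). CCDC6 was too low to be tested. It had 0.124 and 0.0808 FPKM in BR8, 0.0842 and 0.198 FPKM in BR10 and 1.06 and 0.898 FPKM in BR16, against 0.727 and 0.293 FPKM in DMSO. BR8 and BR10 thus lay below both DMSO libraries and BR16 above both.

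The colonies differed from DMSO across the transcriptome and in both directions. Of the 13927 tested genes, 49.2% were called in the mean of the 3 colonies, 3183 higher (22.9%) and 3665 lower (26.3%). A gene is named shared when it was called in each colony by itself with the same sign. There were 2768 such genes, 1452 shared higher (10.4% of tested genes) and 1316 shared lower (9.45%). These shares are the background for the list counts below. In all of the shared genes the 6 colony libraries lay on one side of both DMSO libraries, as 17.8% (above) and 17.3% (below) of tested genes did. At least a 2-fold change in every colony was seen for 319 of the higher and 233 of the lower shared genes. When the 3 colony means were used as 3 replicates, so that the spread between colonies counted, 1540 genes were called, 818 higher and 722 lower. Single genes were checked in this way only where the naming rule, given with the processing, had picked them, and other list members described below were not checked. Of the checked genes described below, CDK4, GLI3, TGFBI, IFITM2, SNAI1, ABCC3, MCL1, KDM5B, S100A6, MT-ND1, HERPUD1, XPC, BTG2 and FASN were then no longer called, at adjusted p-values of 0.0502 to 0.315 (limma). Of 501 long intergenic noncoding RNAs tested, 72 were shared higher (14.4%) and 23 lower (4.59%), and of 11123 protein-coding genes 1268 were shared higher (11.4%) and 1214 lower (10.9%).

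The largest shared rises were led by secreted and cell-surface genes. NOV (CCN3), which encodes a matricellular CCN protein, had 61.3 and 58.8 FPKM in BR8, 27.1 and 27.8 FPKM in BR10 and 59.9 and 60.9 FPKM in BR16, against 0.0605 and 0.166 FPKM in DMSO. The colony libraries stood far above both DMSO libraries, at a mean difference of 5.41 ± 0.07 log2 units, and 24 h of BLU667 gave 0.191 and 0.366 FPKM. CADM1, an adhesion molecule of the immunoglobulin superfamily, behaved alike, with 15.4 and 16.9 FPKM in BR8, 12.7 and 11.7 FPKM in BR10 and 21.5 and 21.8 FPKM in BR16, against 0.0196 and 0.0689 FPKM in DMSO (4.04 ± 0.07). Its level after 24 h of BLU667 was 0.0928 and 0.183 FPKM, and the colonies exceeded that group by 3.92 ± 0.07 log2 units (adjusted p 2.61e-08, limma). PDZK1IP1, a small membrane protein that binds PDZ domains, had 113 and 122 FPKM in BR8, 42.4 and 44.9 FPKM in BR10 and 149 and 154 FPKM in BR16, against 1.2 and 1.5 FPKM in DMSO (5.31 ± 0.07). EDN2, the peptide hormone endothelin-2, had 98.9 and 79.3 FPKM in BR8, 14.3 and 14.3 FPKM in BR10 and 132 and 142 FPKM in BR16, against 0.296 and 0.154 FPKM in DMSO, and BR10 lay well below the other two colonies. IL32†, a cytokine of inflamed tissue, had 103 and 76.8 FPKM in BR8, 31.8 and 36.4 FPKM in BR10 and 80.1 and 81 FPKM in BR16, against 0.941 and 1 FPKM in DMSO (5.01 ± 0.14). IGFBP7†, a secreted IGF-binding protein, was among the most abundant of the rises with 869 and 997 FPKM in BR8, 223 and 219 FPKM in BR10 and 724 and 788 FPKM in BR16, against 24.1 and 21.9 FPKM in DMSO.

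**Figure D1:**
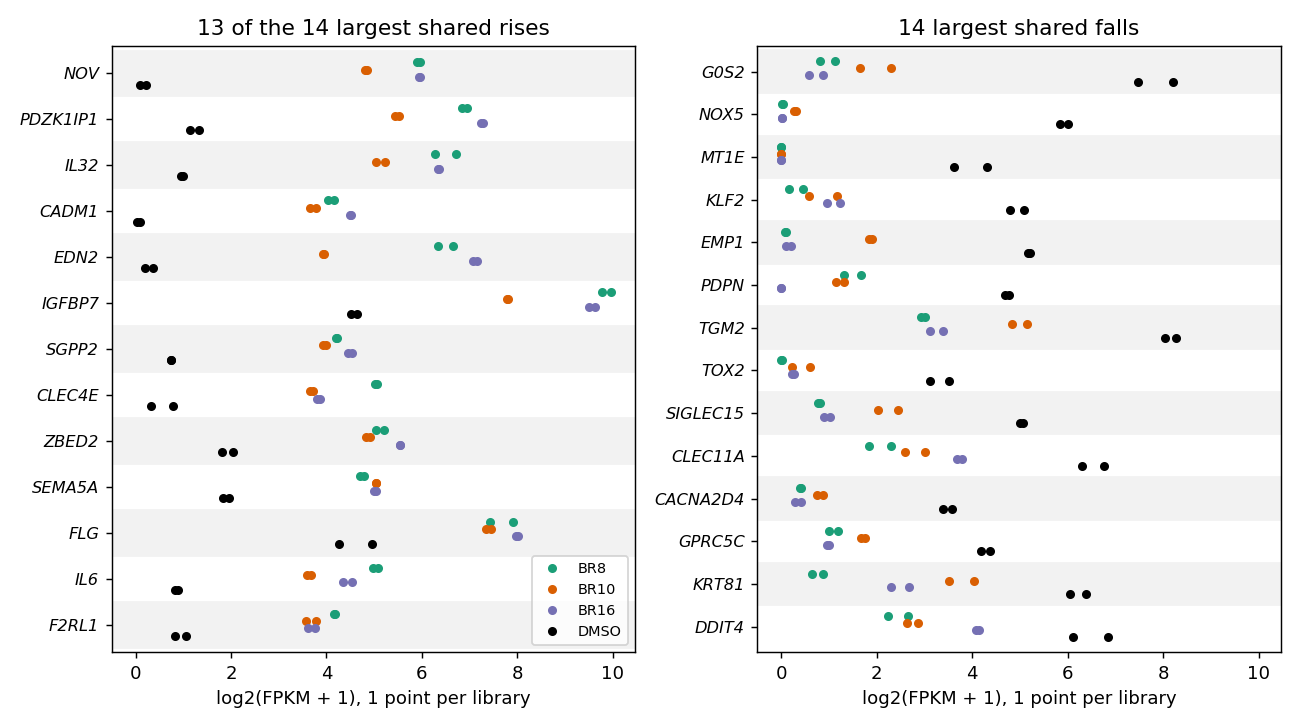
Log2(FPKM + 1) of 13 of the 14 largest shared rises (left) and of the 14 largest falls (right), 1 point per library, with BR8, BR10 and BR16 above DMSO in each row. Every colony point lies to the right of both DMSO points on the left and to the left of them on the right, and MT1E is at 0 in every colony library.

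Other shared rises included a lipid enzyme, a cytokine, receptors and an epidermal protein. SGPP2, a phosphatase that removes sphingosine 1-phosphate, had 17.6 and 17.4 FPKM in BR8, 14.9 and 14.2 FPKM in BR10 and 20.9 and 22.3 FPKM in BR16, against 0.679 and 0.682 FPKM in DMSO. Its range among the colonies was narrow, and the mean difference was 3.47 ± 0.08. IL6†, the ligand of the IL6 receptor, had 30.3 and 32.8 FPKM in BR8, 11.1 and 11.8 FPKM in BR10 and 22.3 and 19.2 FPKM in BR16, against 0.86 and 0.764 FPKM in DMSO (3.51 ± 0.13). F2RL1, the protease-activated receptor PAR2, had 10.9 to 17.2 FPKM over the 6 colony libraries, against 0.766 and 1.07 FPKM in DMSO. CLEC4E, a C-type lectin receptor, had 11.5 to 32.4 FPKM over the 6 colony libraries, against 0.245 and 0.731 FPKM in DMSO, and ZBED2, a zinc finger factor, had 27.3 to 45.4 FPKM over the 6 colony libraries, against 3.13 and 2.49 FPKM in DMSO. SEMA5A†, a semaphorin guidance molecule, had 24.9 to 32.1 FPKM over the 6 colony libraries, against 2.55 and 2.88 FPKM in DMSO. FLG†, filaggrin of the outer epidermis, had 171 and 238 FPKM in BR8, 161 and 174 FPKM in BR10 and 249 and 257 FPKM in BR16, against 30.1 and 18.2 FPKM in DMSO, and the largest adjusted p of its 3 colony contrasts was 8.30e-05 (limma). After 24 h of BLU667, F2RL1 had 21.1 and 27.6 FPKM, ZBED2 32.7 and 41.9 FPKM and SEMA5A 42.9 and 53.9 FPKM. The levels of SGPP2, IL6, CLEC4E and FLG after 24 h of BLU667 lay below every colony library.

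In the shared falls, membrane proteins, enzymes and a transcription factor stood out. G0S2, an inhibitor of the lipase ATGL, had 1.18 and 0.754 FPKM in BR8, 2.14 and 3.92 FPKM in BR10 and 0.498 and 0.846 FPKM in BR16, against 294 and 176 FPKM in DMSO (-6.61 ± 0.26). NOX5†, a calcium-activated NADPH oxidase, had 0.009 to 0.243 FPKM over the 6 colony libraries, against 63.5 and 56.4 FPKM in DMSO, a difference of -5.82 ± 0.08. KLF2, a Krüppel-like factor, had 0.366 and 0.118 FPKM in BR8, 0.49 and 1.25 FPKM in BR10 and 0.946 and 1.34 FPKM in BR16, against 33.2 and 26.9 FPKM in DMSO (-4.19 ± 0.18). All these genes were also low after 24 h of BLU667, with 5.9 and 3.32 FPKM for G0S2, 0.195 and 0.285 FPKM for NOX5 and 0.704 and 0.371 FPKM for KLF2. EMP1, an epithelial membrane protein, had 0.0798 and 0.053 FPKM in BR8, 2.59 and 2.73 FPKM in BR10 and 0.157 and 0.0719 FPKM in BR16, against 35.9 and 34.8 FPKM in DMSO; BR10 kept a low level that BR8 and BR16 did not. TGM2†, a transglutaminase that crosslinks proteins, had 7.06 and 6.62 FPKM in BR8, 27.6 and 34.5 FPKM in BR10 and 9.51 and 7.7 FPKM in BR16, against 310.2 and 261 FPKM in DMSO (-4.42 ± 0.13). PDPN had 1.49 and 2.21 FPKM in BR8, 1.2 and 1.5 FPKM in BR10 and 0 and 0 FPKM in BR16, against 24.6 and 26.4 FPKM in DMSO; BR16 held 0 reads for it. DDIT4†, an inhibitor of mTORC1 that stress induces, had 5.31 and 3.69 FPKM in BR8, 5.23 and 6.32 FPKM in BR10 and 16 and 16.8 FPKM in BR16, against 114 and 68.2 FPKM in DMSO (-3.37 ± 0.27). The others of the 14 largest falls were TOX2 (-3.10), the lectin SIGLEC15 (-3.71), the secreted factor CLEC11A (-3.67), the calcium channel subunit CACNA2D4 (-2.97), the orphan receptor GPRC5C (-3.01) and the hair keratin KRT81 (-3.88). KRT81 has close relatives whose reads the authors' counting may have split.

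The 250 bases before the transcription start are shown for 4 of these 28 genes, those whose RefSeq promoter (GRCh38.p14) held an AP-1 site (TGANTCA) or a cyclic AMP response element (CRE, TGACGTCA), searched on both strands. Of the 28 genes, 19 had a promoter window of 250 bases before and 50 after the start; AP-1 letters were found in 3 of them and CRE letters in 1. Capitals mark AP-1 matches in SGPP2, FLG and EMP1, a TATA box (TATAAA) in FLG and the CRE in IL32. A match describes the letters and is no measure of binding.
SGPP2, chr2:222423738-222423987, plus strand: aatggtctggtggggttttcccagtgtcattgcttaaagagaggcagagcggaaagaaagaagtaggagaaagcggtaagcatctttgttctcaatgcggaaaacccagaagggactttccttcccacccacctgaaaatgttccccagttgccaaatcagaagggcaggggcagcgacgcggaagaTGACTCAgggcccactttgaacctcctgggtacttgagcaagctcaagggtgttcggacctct
FLG, chr1:152325240-152325489, minus strand: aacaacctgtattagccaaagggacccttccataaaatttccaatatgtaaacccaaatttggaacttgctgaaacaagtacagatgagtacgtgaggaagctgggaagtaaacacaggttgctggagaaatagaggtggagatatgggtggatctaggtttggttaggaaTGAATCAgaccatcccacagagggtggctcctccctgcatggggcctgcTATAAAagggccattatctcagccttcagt
EMP1, chr12:13196476-13196725, plus strand: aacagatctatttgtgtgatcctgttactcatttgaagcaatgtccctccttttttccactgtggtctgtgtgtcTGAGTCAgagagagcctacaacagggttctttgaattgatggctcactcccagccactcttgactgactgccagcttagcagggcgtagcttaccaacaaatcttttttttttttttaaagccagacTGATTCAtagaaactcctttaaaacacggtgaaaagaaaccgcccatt
IL32, chr16:3065153-3065402, plus strand: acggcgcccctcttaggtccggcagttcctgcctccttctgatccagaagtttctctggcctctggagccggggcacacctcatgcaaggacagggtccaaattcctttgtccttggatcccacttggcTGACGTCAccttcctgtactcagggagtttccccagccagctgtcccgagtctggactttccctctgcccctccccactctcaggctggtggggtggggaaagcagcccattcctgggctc

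Over all genes, the AP-1 letters stood in 6.67% of the 1035 shared-higher promoters and in 3.41% of the 880 shared-lower ones, beside 4.59% of the 9246 tested promoters and 7.76% of all 27305. E2F letters (TTTGGCGC or TTTCGCGC) stood in 1.26% of shared-higher and 4.2% of shared-lower promoters, beside 2.13% of tested ones. The CCAAT box was in 33.7% of shared-higher and 41.4% of shared-lower promoters (36.8% of tested), and the CRE in 2.03% and 2.61% (3.37% of tested). An ETS site (CCGGAAGT) was in 4.93% of shared-higher and 7.61% of shared-lower promoters, both below the 9.36% of tested ones. These shares are descriptions without a test.

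Most ERK targets and feedback inhibitors tested were lower in all 3 colonies, although most of the list stood above their level after 24 h of BLU667. Of 21 tested members, 13 were shared lower and 1 shared higher, and the median difference was -0.81, beside -0.03 for all tested genes. The Sprouty genes SPRY1 and SPRY4 encode inhibitors of receptor-to-RAS signalling. SPRY4 had 0.321 and 0.389 FPKM in BR8, 2.19 and 2.37 FPKM in BR10, 0.441 and 0.446 FPKM in BR16 and 0.199 and 0.0438 FPKM after 24 h of BLU667, against 9.22 and 8.74 FPKM in DMSO. The colonies lay between the acutely treated and the solvent cells, with BR10 the highest. SPRY1 had 0.244 and 0.0749 FPKM in BR8, 0.546 and 0.779 FPKM in BR10, 0.357 and 0.483 FPKM in BR16 and 0.387 and 0.319 FPKM after 24 h of BLU667, against 5.74 and 5.62 FPKM in DMSO, and its colony mean did not pass the test against 24 h of BLU667 (0.05 ± 0.11, adjusted p 0.732, limma). ETV1, an ETS factor of the PEA3 group, had 0.173 to 1.48 FPKM over the 6 colony libraries, against 6.56 and 7.94 FPKM in DMSO, and its relatives ETV4† (-1.73) and ETV5† (-2.08) were shared lower too. DUSP6†, the phosphatase of ERK, differed by -1.91 in BR8, -0.76 in BR10 and -1.61 in BR16. FOSL1, an AP-1 subunit, had 18 and 16.4 FPKM in BR8, 37 and 44.6 FPKM in BR10, 52.6 and 50.3 FPKM in BR16 and 5.93 and 2.74 FPKM after 24 h of BLU667, against 221 and 169.8 FPKM in DMSO (-2.51 ± 0.21 against DMSO). Against 24 h of BLU667, where 61.1% of tested genes were called in the colony mean, 32.4% higher and 28.7% lower, 16 of the 21 genes were higher in the colonies and 3 lower, with a median of 0.73. The exception in the other direction was EGR1, an immediate early factor, at 0.76 in BR8, 1.13 in BR10 and 1.77 in BR16. CCND1†, cyclin D1, was called lower in the colony mean (-0.32 ± 0.07, adjusted p 0.00658, limma) and was not shared, with 81.2 and 70.6 FPKM in BR8, 109 and 119 FPKM in BR10 and 69.9 and 69.2 FPKM in BR16, against 104 and 108 FPKM in DMSO.

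**Figure D2:**
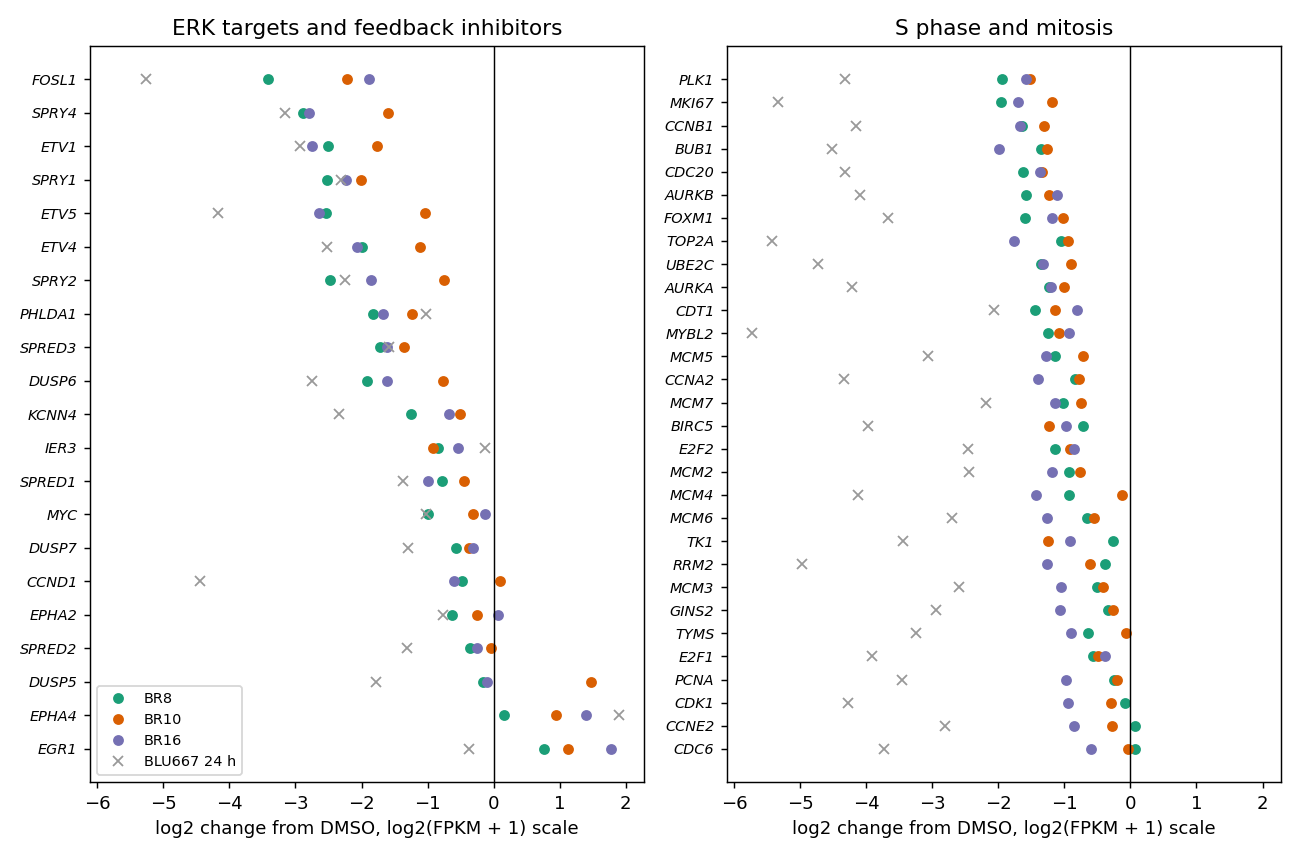
Log2 change from DMSO on the log2(FPKM + 1) scale of ERK targets and feedback inhibitors (left) and S phase and mitosis genes (right), for BR8, BR10, BR16 and, as crosses, 24 h of BLU667. The cross of every S phase and mitosis gene lies farther below 0 than its 3 colony points.

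Other immediate early factors did not follow the ERK targets. Of 12 tested, 4 were shared higher and none shared lower, with a median of 0.20 that became -0.14 without BR16. KLF4, a Krüppel-like factor of epithelia, had 10.1 and 9.28 FPKM in BR8, 6.31 and 7.06 FPKM in BR10, 17 and 16.5 FPKM in BR16 and 1.82 and 1.57 FPKM after 24 h of BLU667, against 1.77 and 1.64 FPKM in DMSO (2.07 ± 0.07). FOSL2, an AP-1 subunit, had 87.2 and 83.7 FPKM in BR8, 65.2 and 70.6 FPKM in BR10 and 135 and 133 FPKM in BR16, against 29.4 and 24.5 FPKM in DMSO (1.74 ± 0.09). ATF3, a stress-induced partner of AP-1, had 1.99 to 3.61 FPKM over the 6 colony libraries, against 0.774 and 0.548 FPKM in DMSO, and KLF6 had 40.1 to 47.2 FPKM over the 6 colony libraries, against 22.5 and 21.4 FPKM in DMSO. FOSL1 and FOSL2 moved in opposite directions in every colony.

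S phase and mitosis genes were lower as a group. Of 30 tested members, 22 were shared lower, none was shared higher, and 29 were called lower in the colony mean, with a median of -0.97. PLK1†, a mitotic kinase, had 9.27 and 9.45 FPKM in BR8, 12.2 and 13.9 FPKM in BR10, 12.9 and 12 FPKM in BR16 and 1 and 1 FPKM after 24 h of BLU667, against 40.6 and 37.4 FPKM in DMSO (-1.68 ± 0.07). The colony libraries fell between both other groups without overlap. CCNB1, mitotic cyclin B1, had 37.3 and 38 FPKM in BR8, 46.8 and 49.2 FPKM in BR10 and 37.3 and 36.7 FPKM in BR16, against 102 and 141 FPKM in DMSO (-1.54 ± 0.13), and CDC20, an activator of the anaphase-promoting complex, had 38.4 and 41.4 FPKM in BR8, 43.5 and 55.4 FPKM in BR10 and 48.9 and 47.3 FPKM in BR16, against 138 and 115 FPKM in DMSO (-1.45 ± 0.10). BUB1, a kinase of the spindle checkpoint, had 8.27 to 14.9 FPKM over the 6 colony libraries, against 32.9 and 39.5 FPKM in DMSO. All 30 genes were called higher in the colony mean than after 24 h of BLU667, by a median of 2.83. The 8 members that were not shared were CCNE2†, CDK1, MCM4, GINS2†, TK1, CDC6 (0.07 in BR8, -0.03 in BR10 and -0.60 in BR16), PCNA (-0.25 in BR8, -0.20 in BR10 and -0.98 in BR16) and TYMS† (-0.64 in BR8, -0.06 in BR10 and -0.90 in BR16). In bulk RNA, fewer cycling cells and less RNA per cycling cell cannot be told apart.

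Among 15 CDK inhibitors and G1 regulators, 2 were shared higher and 3 lower. CDKN1C (p57), an inhibitor of G1 CDKs, had 10.1 and 8.96 FPKM in BR8, 6.74 and 7.77 FPKM in BR10, 19.6 and 25.8 FPKM in BR16 and 60.7 and 49.2 FPKM after 24 h of BLU667, against 3.46 and 2.83 FPKM in DMSO (1.62 ± 0.13). CDKN2A†, the locus of p16 and p14ARF, had 12.9 and 11.5 FPKM in BR8, 14 and 17.6 FPKM in BR10 and 25.6 and 26.5 FPKM in BR16, against 57.9 and 47.5 FPKM in DMSO (-1.56 ± 0.10), and BR16 kept the most. CDKN2D (p19) had 1.73 to 3.15 FPKM over the 6 colony libraries, against 5.81 and 4.8 FPKM in DMSO, and was not shared without DMSO replicate 1 or BR16 replicate 1 or with a pseudocount of 0.1. CDK4† had 16.5 to 24.5 FPKM over the 6 colony libraries, against 33 and 28 FPKM in DMSO, and was kept as a shared gene in 9 of 19 alternative settings; it was lost without DMSO replicate 1 or any library of BR10 or BR16, and with no filter, quantile normalisation, only the groups compared, the replicate block or no variance trend. TERT, the catalytic subunit of telomerase, had 0.284 and 0.116 FPKM in BR8, 0.282 and 0.326 FPKM in BR10, 0.548 and 0.49 FPKM in BR16 and 0.0494 and 0.163 FPKM after 24 h of BLU667, against 1.59 and 1.5 FPKM in DMSO (-0.93 ± 0.12). It was not shared when the GC trend was removed.

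Receptor tyrosine kinases moved in both directions, 4 shared higher and 5 shared lower of 17. EGFR†, the epidermal growth factor receptor, had 96.8 and 97.5 FPKM in BR8, 49.3 and 51.8 FPKM in BR10, 161 and 161 FPKM in BR16 and 63.1 and 59.1 FPKM after 24 h of BLU667, against 18.8 and 19.6 FPKM in DMSO (2.21 ± 0.06). BR16 was highest and BR10 lowest of the colonies, and all exceeded DMSO. FGFR2 had 1.9 and 2.16 FPKM in BR8, 2.48 and 2.83 FPKM in BR10 and 2.97 and 3.35 FPKM in BR16, against 0.0498 and 0.117 FPKM in DMSO (1.73 ± 0.10), whereas FGFR4 had 3.4 and 3.27 FPKM in BR8, 2.34 and 2.98 FPKM in BR10 and 3.8 and 3.79 FPKM in BR16, against 11.7 and 9.78 FPKM in DMSO (-1.47 ± 0.09). The axon-guidance receptor EPHB2† (1.62 in BR8, 0.75 in BR10 and 1.29 in BR16) and the orphan receptor ROR1 (1.15 in BR8, 0.97 in BR10 and 0.66 in BR16) were shared higher. MET, the receptor of hepatocyte growth factor, was shared lower (-1.60 in BR8, -0.32 in BR10 and -1.31 in BR16), as were MERTK (-0.69), PDGFRB (-1.32) and NTRK3 (-1.18). AXL† (0.03, adjusted p 0.762, limma) was not called in the mean.

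Of 16 receptor ligands, 4 were shared higher and 2 lower. PDGFB, a ligand of PDGF receptors, had 24.1 and 20.7 FPKM in BR8, 10.9 and 11.2 FPKM in BR10, 28.2 and 27.1 FPKM in BR16 and 3.41 and 4.15 FPKM after 24 h of BLU667, against 0.932 and 0.672 FPKM in DMSO (3.48 ± 0.09). PDGFD† had 7.99 and 8.04 FPKM in BR8, 2.92 and 3.04 FPKM in BR10 and 10.1 and 9.8 FPKM in BR16, against 0.253 and 0.637 FPKM in DMSO (2.35 ± 0.10), and PDGFA differed by 1.57 in BR8, 0.70 in BR10 and 0.98 in BR16. PDGFRB, a receptor of PDGFB and PDGFD, fell to 0.108 to 1.53 FPKM over the 6 colony libraries, against 2.8 and 2.71 FPKM in DMSO. TGFA, an EGFR ligand, had 9.28 and 8.66 FPKM in BR8, 11 and 10.7 FPKM in BR10 and 9.85 and 9.53 FPKM in BR16, against 34.5 and 37.9 FPKM in DMSO (-1.78 ± 0.08), opposite in direction to EGFR. VEGFA†, the angiogenic ligand, had 3.52 to 4.56 FPKM over the 6 colony libraries, against 11.6 and 8.76 FPKM in DMSO (-1.15 ± 0.10).

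Most cytokine and NF-kB genes tested were shared higher. Of 15 NF-kB targets, chemokines and cytokines, 9 were shared higher and 1 lower, with a median of 1.03. RELB, a subunit of noncanonical NF-kB, had 19.7 and 21.2 FPKM in BR8, 11.5 and 12.7 FPKM in BR10 and 34.8 and 32 FPKM in BR16, against 5.54 and 3.81 FPKM in DMSO (1.92 ± 0.12). The NF-kB inhibitors NFKBIA (1.29 in BR8, 0.47 in BR10 and 1.74 in BR16) and TNFAIP3† (1.65 in BR8, 0.46 in BR10 and 1.86 in BR16), both feedback targets of the pathway, were shared higher. CXCL1, a neutrophil chemokine, had 99 and 123 FPKM in BR8, 60.7 and 66 FPKM in BR10 and 70.5 and 73.9 FPKM in BR16, against 31.9 and 32.2 FPKM in DMSO (1.29 ± 0.17). CXCL8 differed by 3.12 in BR8, 2.06 in BR10 and 0.93 in BR16 and CCL2, a monocyte chemokine, by 2.18 in BR8, 0.63 in BR10 and 3.57 in BR16. The exception was CSF1, a macrophage growth factor, with 5.56 to 9.43 FPKM over the 6 colony libraries, against 21.1 and 17.1 FPKM in DMSO (-1.27 ± 0.22). It was not shared without DMSO replicate 1 or BR16 replicate 2 or with no filter.

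**Figure D3:**
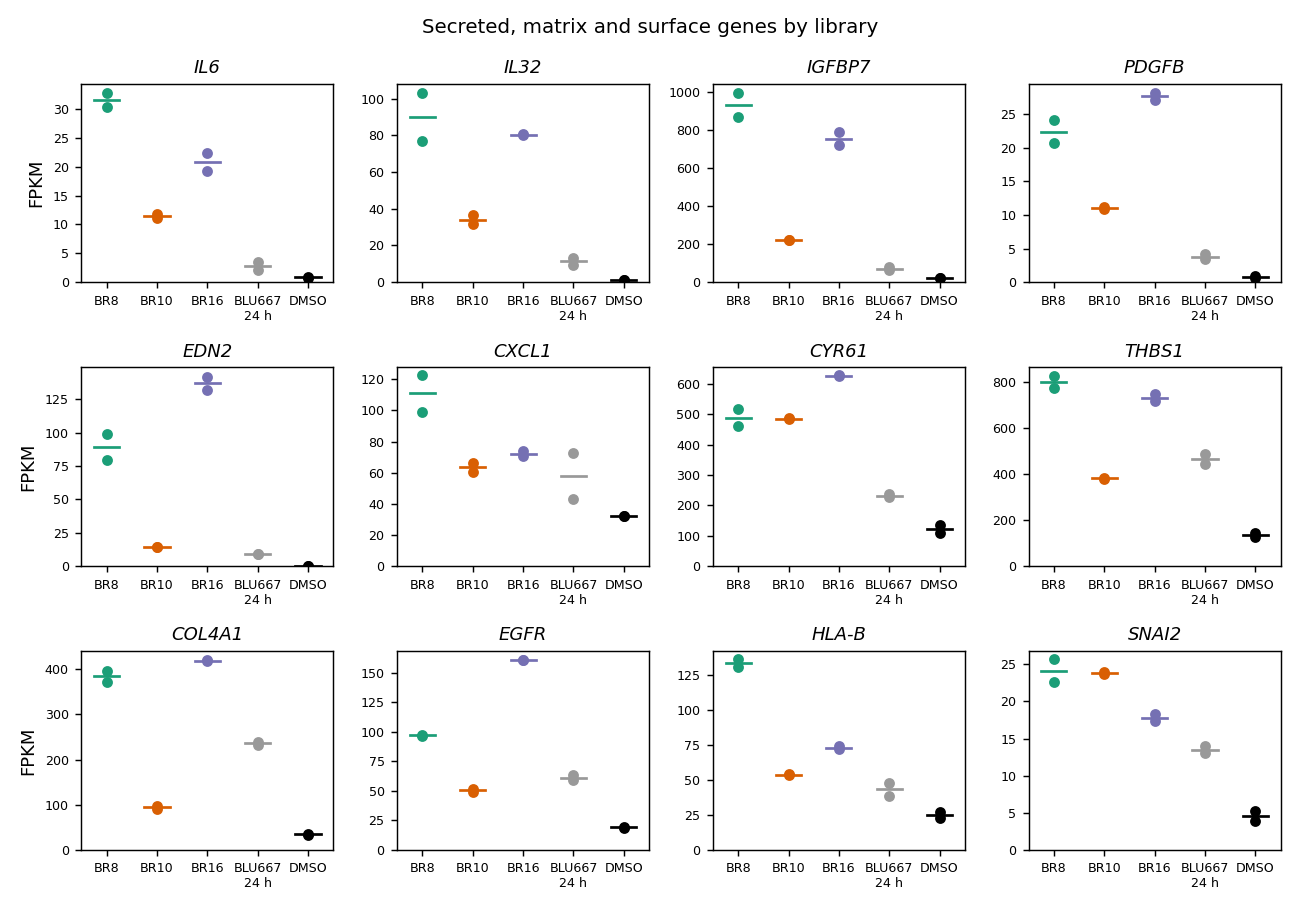
FPKM of 12 secreted, matrix and surface genes by library, with BR8, BR10 and BR16 left of 24 h of BLU667 and DMSO and a line at each group mean. Each colony lies above DMSO in all 12 panels. By group mean, BR10 is the lowest colony for every gene except SNAI2, though close to BR8 for CYR61.

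In the IL6, JAK and STAT3 list, 5 of 20 were shared higher and 3 lower, and IL6 went the other way from SOCS3 and BCL3. IL6 and JAK1† were higher, JAK1 with 93.1 and 101 FPKM in BR8, 63.8 and 60.3 FPKM in BR10 and 85.9 and 83 FPKM in BR16, against 25.9 and 31 FPKM in DMSO (1.46 ± 0.08). SOCS3, a feedback inhibitor that STAT3 induces, had 2.04 and 1.58 FPKM in BR8, 1.83 and 2.32 FPKM in BR10, 1.87 and 2.19 FPKM in BR16 and 1.39 and 1.07 FPKM after 24 h of BLU667, against 16.5 and 12.4 FPKM in DMSO (-2.37 ± 0.13). The colony libraries for SOCS3 were close to each other and far below DMSO. BCL3†, another STAT3 target, had 2.86 to 6.68 FPKM over the 6 colony libraries, against 31.6 and 23.1 FPKM in DMSO, and OSMR†, the receptor of oncostatin M, differed by -1.35 in BR8, -1.06 in BR10 and -1.81 in BR16. STAT3 itself was called in the mean (0.38 ± 0.06, adjusted p 0.00166, limma) and was not shared.

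Antigen presentation rose together, with 10 of 14 genes shared higher, none lower and a median of 0.81. HLA-B† had 137 and 131 FPKM in BR8, 53.3 and 54.3 FPKM in BR10 and 72.2 and 74.2 FPKM in BR16, against 27.3 and 22.5 FPKM in DMSO (1.67 ± 0.10), and B2M, the invariant chain of class I molecules, had 180.0 and 204 FPKM in BR8, 154 and 147 FPKM in BR10 and 146 and 147 FPKM in BR16, against 81.1 and 90.1 FPKM in DMSO (0.91 ± 0.07). HLA-E (0.68 in BR8, 0.70 in BR10 and 1.20 in BR16) followed, with the peptide transporter TAP1† (0.91 in BR8, 0.46 in BR10 and 0.95 in BR16) and the trimming peptidase ERAP1† (1.47 in BR8, 0.61 in BR10 and 0.86 in BR16). Class I genes are near-identical in places, so the split between them is uncertain. Of 16 interferon-stimulated genes, 3 were shared higher and 2 lower, beside 10.4% and 9.45% of all tested genes. In the colony mean, 8 were called higher and 3 lower, beside 22.9% and 26.3% of all tested genes. The viral RNA sensor IFIH1 (0.87 ± 0.11) and IFIT3 (1.13 ± 0.10) were higher, while the close paralogs IFITM3† (-1.53 ± 0.14) and IFITM2† (-1.08 ± 0.09) were lower.

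Extracellular matrix genes tested were more often shared higher than lower. Of 24 collagens, laminins and matrix glycoproteins, 10 were shared higher, 2 were shared lower and 12 were not shared, with a median of 0.44. The shared-lower count was near the 9.45% of all tested genes. COL4A1, a basement membrane collagen, had 397 and 372 FPKM in BR8, 91.1 and 97.2 FPKM in BR10 and 421 and 418 FPKM in BR16, against 35.8 and 33.5 FPKM in DMSO (2.80 ± 0.06). COL12A1, a fibril-associated collagen, had 27.1 and 27.3 FPKM in BR8, 28.8 and 28.4 FPKM in BR10 and 21.8 and 22.9 FPKM in BR16, against 4.67 and 5 FPKM in DMSO (2.21 ± 0.06), with the colonies close together. THBS1†, thrombospondin 1, was among the most abundant with 826 and 771 FPKM in BR8, 379 and 383 FPKM in BR10 and 716 and 744 FPKM in BR16, against 125 and 145 FPKM in DMSO, and COL7A1†, the anchoring fibril collagen, had 4.49 to 17.2 FPKM over the 6 colony libraries, against 1.89 and 1.43 FPKM in DMSO. COL17A1†, a hemidesmosome collagen, was shared lower (-1.72 in BR8, -1.44 in BR10 and -1.13 in BR16), as was COL5A2 (-0.80). Of 14 proteases and serpins, 7 were shared higher and 1 lower, among them SERPINA1, antitrypsin, with 41.2 and 55.1 FPKM in BR8, 22.8 and 24.8 FPKM in BR10 and 56.3 and 55.8 FPKM in BR16, against 8.68 and 6.75 FPKM in DMSO, and the protease ADAMTS1 with 35.5 and 36.4 FPKM in BR8, 13 and 13.1 FPKM in BR10 and 38.4 and 39.6 FPKM in BR16, against 5.54 and 5.16 FPKM in DMSO. MMP7, matrilysin, differed by 2.17 in BR8, 0.49 in BR10 and 2.05 in BR16. TIMP1, a metalloprotease inhibitor, was shared lower by less (-0.60 in BR8, -0.38 in BR10 and -0.55 in BR16).

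Integrins moved in both directions, 4 of 12 shared higher and 2 lower. ITGB2†, the beta chain of leukocyte integrins, had 6.19 and 5.64 FPKM in BR8, 9.26 and 10 FPKM in BR10 and 11.4 and 11.2 FPKM in BR16, against 0.849 and 0.763 FPKM in DMSO (2.42 ± 0.07). ITGB8† had 3.07 to 7.88 FPKM over the 6 colony libraries, against 0.0925 and 0.0793 FPKM in DMSO, ITGAV†, its alpha partner, had 86.9 to 153 FPKM over the 6 colony libraries, against 37.5 and 47.4 FPKM in DMSO, and ITGB3†, another beta partner of ITGAV, differed by 0.58 in BR8, 0.95 in BR10 and 0.92 in BR16. ITGA6†, the alpha chain of the laminin receptor of hemidesmosomes, had 5.98 to 12.1 FPKM over the 6 colony libraries, against 18.7 and 20.9 FPKM in DMSO (-1.14 ± 0.07). The leukocyte marker PTPRC was among the immune markers that did not reach 1 FPKM in 2 libraries.

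YAP and TAZ targets were higher for 7 of 16 and lower for 2, with a median of 0.50. CYR61 (CCN1), a matricellular target, had 462 and 516 FPKM in BR8, 483 and 488 FPKM in BR10 and 625 and 628 FPKM in BR16, against 135 and 109 FPKM in DMSO (2.12 ± 0.09), and CRIM1† had 137 to 184 FPKM over the 6 colony libraries, against 57.5 and 63.2 FPKM in DMSO. The tissue factor gene F3 (2.03 in BR8, 0.49 in BR10 and 1.04 in BR16) and the TAZ gene WWTR1† (0.63 in BR8, 0.79 in BR10 and 0.52 in BR16) were shared higher. NT5E (CD73), an ectonucleotidase, went the other way with 8.12 and 8.54 FPKM in BR8, 20.6 and 20.5 FPKM in BR10 and 3.69 and 3.59 FPKM in BR16, against 88.9 and 109 FPKM in DMSO (-3.34 ± 0.14). Of 20 TGF-beta and BMP genes, 3 were shared higher and 6 lower. TGFBI, an extracellular target, had 50.5 and 55.5 FPKM in BR8, 6.76 and 6.64 FPKM in BR10 and 15.7 and 15.4 FPKM in BR16, against 2.01 and 2.3 FPKM in DMSO, with BR8 the highest. TGFB2†, a ligand, was shared higher (0.53 in BR8, 2.26 in BR10 and 1.25 in BR16), and TGFBR2, its receptor, shared lower (-1.37 in BR8, -0.97 in BR10 and -1.52 in BR16). The BMP targets ID1 (-0.96), ID2† (-1.13), ID3 (-1.81) and SMAD6 (-1.55) were shared lower, as was the stress cytokine GDF15 (-2.08). The list median was 0.01 and turned negative under 11 of the alternatives, and no direction is given for the list as a whole.

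Single epithelial and mesenchymal genes moved in both directions. SNAI2 (Slug), a repressor of epithelial genes, had 22.7 and 25.7 FPKM in BR8, 23.7 and 24 FPKM in BR10, 18.3 and 17.3 FPKM in BR16 and 14 and 13 FPKM after 24 h of BLU667, against 3.82 and 5.26 FPKM in DMSO (2.05 ± 0.10). ZEB1†, another such repressor, had 4.6 and 4.52 FPKM in BR8, 4.99 and 4.26 FPKM in BR10 and 3.64 and 3.59 FPKM in BR16, against 9.19 and 10.9 FPKM in DMSO (-1.07 ± 0.08), and SNAI1 had 1.72 and 1.58 FPKM in BR8, 1.47 and 2.12 FPKM in BR10, 5.4 and 5.55 FPKM in BR16 and 24.4 and 20.3 FPKM after 24 h of BLU667, against 7.64 and 8.33 FPKM in DMSO (-1.31 ± 0.11). SNAI1 was not shared without DMSO replicate 2 or either BR16 library. Of 14 mesenchymal genes, 2 were shared higher and 2 lower, beside 10.4% and 9.45% of all tested genes. VIM†, vimentin, differed by -0.01 in BR8, -0.30 in BR10 and -0.36 in BR16 and was not shared. Of 11 keratins and stratified epithelial genes, 3 were shared higher and 1 lower. KRT80 had 73.3 and 70.9 FPKM in BR8, 58.9 and 63.4 FPKM in BR10, 85.8 and 85 FPKM in BR16 and 9.33 and 10.9 FPKM after 24 h of BLU667, against 24.4 and 21.4 FPKM in DMSO (1.62 ± 0.08), and SFN, the 14-3-3 sigma protein of epithelia, had 11.5 and 9.31 FPKM in BR8, 1.92 and 4.01 FPKM in BR10 and 12.5 and 10.6 FPKM in BR16, against 0.735 and 0.575 FPKM in DMSO (2.30 ± 0.19). GLIS3†, a zinc finger factor needed for thyroid hormone synthesis, was the 1 shared gene of 4 thyroid genes tested, with 16 and 16.4 FPKM in BR8, 15 and 14.4 FPKM in BR10 and 14.3 and 14.7 FPKM in BR16, against 6.39 and 6.65 FPKM in DMSO (1.10 ± 0.05). PAX8 differed by 0.45 in BR8, 0.29 in BR10 and 1.10 in BR16 and was not shared. Of 14 S100 proteins and annexins, 4 were shared higher and none lower. ANXA3 had 17.5 to 27.8 FPKM over the 6 colony libraries, against 8.97 and 10.9 FPKM in DMSO (1.05 ± 0.10), and S100A6† had 377 and 386 FPKM in BR8, 237 and 258 FPKM in BR10 and 675 and 698 FPKM in BR16, against 189 and 120.0 FPKM in DMSO. S100A6 was not shared without BR10 replicate 2 or with no filter.

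Most of the glycolysis and hypoxia-inducible genes were shared lower. Of 18 tested, 11 were shared lower and none higher, with a median of -0.70. In the colony mean, 15 were called lower, beside 26.3% of all tested genes, and 3 were called higher, PFKP† (0.36), PFKFB3 (0.31) and ADM (0.78). CA12, a carbonic anhydrase, had 0.28 and 0.357 FPKM in BR8, 4.96 and 4.98 FPKM in BR10 and 0.682 and 0.809 FPKM in BR16, against 27.1 and 23.1 FPKM in DMSO (-3.44 ± 0.09). SLC2A1†, the glucose transporter GLUT1, had 19.7 and 17.1 FPKM in BR8, 24.9 and 27.4 FPKM in BR10, 26.2 and 26.4 FPKM in BR16 and 11.4 and 15 FPKM after 24 h of BLU667, against 63.5 and 53.5 FPKM in DMSO (-1.29 ± 0.11). LDHA, lactate dehydrogenase A, differed by -0.97 in BR8, -0.80 in BR10 and -1.14 in BR16, GAPDH† by -0.67 in BR8, -0.63 in BR10 and -0.72 in BR16 and HK2†, hexokinase 2, by -1.40 in BR8, -0.73 in BR10 and -0.64 in BR16. PFKFB4†, which sets the glycolytic regulator fructose 2,6-bisphosphate, had 2.06 to 2.89 FPKM over the 6 colony libraries, against 9.15 and 6.94 FPKM in DMSO (-1.36 ± 0.10). SLC2A3, the glucose transporter GLUT3, had 0 reads in all 6 colony libraries, against 189 and 143 reads in DMSO, which with 3 reads over the colonies as a floor is at least 344-fold lower. It shares sequence with its close relative SLC2A14, so its count is uncertain.

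Amino acid and lipid genes moved in part. Of 19 ATF4 targets and serine synthesis genes, 6 were shared lower and 1 higher. PHGDH, the first enzyme of serine synthesis, had 10.6 to 12.8 FPKM over the 6 colony libraries, against 23.8 and 20.1 FPKM in DMSO (-0.88 ± 0.08), and TRIB3, a pseudokinase that ATF4 induces, had 3.53 to 8.32 FPKM over the 6 colony libraries, against 20.1 and 17.6 FPKM in DMSO. DDIT3† (CHOP), which lies in the same stress response, was the 1 shared higher (1.21 in BR8, 1.23 in BR10 and 0.58 in BR16). It was not shared without DMSO replicate 1 or either BR16 library or with no filter. Of 24 sterol and fatty acid genes, 4 were shared higher and 3 lower. SREBF1†, which encodes the transcription factor SREBP-1, was shared lower (-1.23 ± 0.10). Of 23 lysosome and autophagy genes, 7 were shared higher and none lower, with a median of 0.40. LAMP1, an abundant lysosomal membrane protein, had 107 and 111 FPKM in BR8, 71.2 and 76.4 FPKM in BR10 and 127 and 136 FPKM in BR16, against 53.3 and 49.8 FPKM in DMSO (0.97 ± 0.07), and WIPI1†, an autophagy factor, had 2.62 to 4.09 FPKM over the 6 colony libraries, against 1.57 and 1.3 FPKM in DMSO. Endoplasmic reticulum chaperones, 1 shared in each direction of 18, and NRF2 targets, 1 shared higher of 18, were near the share of all genes. FTH1†, ferritin heavy chain, differed by -2.19 in BR8, -2.54 in BR10 and 0.27 in BR16.

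Most ABC exporters tested were shared higher, and the BCL2 family held few shared genes. Of 7 ABC drug and lipid exporters tested, 5 were shared higher and 1 lower. ABCB1, P-glycoprotein, had 1.72 and 1.7 FPKM in BR8, 4.55 and 4.71 FPKM in BR10, 5.21 and 5.24 FPKM in BR16 and 2.06 and 2.46 FPKM after 24 h of BLU667, against 0.464 and 0.37 FPKM in DMSO (1.69 ± 0.07). ABCC4 had 29.8 to 42.8 FPKM over the 6 colony libraries, against 17 and 20.1 FPKM in DMSO (0.92 ± 0.08), and ABCC3 differed by 0.95 in BR8, 1.85 in BR10 and 0.64 in BR16. Of 15 BCL2 family genes, 2 were shared higher and 1 lower, near the shares of all tested genes, and their median of 0.09 was -0.12 without DMSO replicate 2 and -0.30 without BR16. BCL2, which holds back mitochondrial cell death, had 5.81 and 5.08 FPKM in BR8, 3.55 and 3.4 FPKM in BR10, 6.54 and 6.13 FPKM in BR16 and 1.6 and 1.85 FPKM after 24 h of BLU667, against 0.646 and 0.656 FPKM in DMSO (1.85 ± 0.08). BIK, a BH3-only protein that promotes it, had 10.9 and 6.17 FPKM in BR8, 5.19 and 6.71 FPKM in BR10, 6.53 and 7.86 FPKM in BR16 and 0.775 and 0.302 FPKM after 24 h of BLU667, against 0.622 and 0.332 FPKM in DMSO (2.45 ± 0.21). MCL1†, another prosurvival member, had 87.3 and 84.6 FPKM in BR8, 77.5 and 77.7 FPKM in BR10 and 71.3 and 68.3 FPKM in BR16, against 104 and 114 FPKM in DMSO (-0.49 ± 0.06).

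FOXO factors and targets, which rise when PI3K and AKT signalling falls, held 5 shared higher and 3 shared lower of 13. PIK3IP1†, an inhibitor of PI3K, had 6.71 and 6.68 FPKM in BR8, 8.78 and 7.98 FPKM in BR10, 10.4 and 10.3 FPKM in BR16 and 14.4 and 19.7 FPKM after 24 h of BLU667, against 1.4 and 1.41 FPKM in DMSO (1.96 ± 0.10). CITED2, a transcriptional coregulator, had 124 and 129 FPKM in BR8, 127 and 128 FPKM in BR10 and 138 and 154 FPKM in BR16, against 34.4 and 32.2 FPKM in DMSO (1.97 ± 0.07). FOXO3 (0.94 in BR8, 0.66 in BR10 and 0.95 in BR16) and GADD45A (1.35 in BR8, 0.86 in BR10 and 1.52 in BR16) were shared higher, whereas FOXO1† (-1.30 ± 0.14) and KLF2 were lower. Of 19 p53 targets, 2 were shared in each direction, near the shares of all tested genes. Among those lower was TNFRSF10B†, a death receptor, with 27.4 and 26 FPKM in BR8, 22.2 and 24.2 FPKM in BR10 and 26.4 and 24.1 FPKM in BR16, against 55.5 and 52.1 FPKM in DMSO.

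Developmental pathways each had single members that moved. JAG1†, a Notch ligand, had 11.8 and 11.4 FPKM in BR8, 10.2 and 10.1 FPKM in BR10, 20 and 19.9 FPKM in BR16 and 17.4 and 15.7 FPKM after 24 h of BLU667, against 1.76 and 1.85 FPKM in DMSO (2.35 ± 0.06). HES1, the main Notch target, had 1.49 and 2.04 FPKM in BR8, 4.83 and 5 FPKM in BR10 and 4.18 and 3.23 FPKM in BR16, against 19.8 and 17.7 FPKM in DMSO (-2.22 ± 0.11), opposite in direction to the ligand. In the whole Notch list 2 of 10 were shared higher and 4 lower. WNT5B, a noncanonical Wnt ligand, had 12.4 and 10.3 FPKM in BR8, 17.4 and 18.3 FPKM in BR10 and 17.5 and 16.9 FPKM in BR16, against 1.98 and 2.13 FPKM in DMSO (2.40 ± 0.08), and the receptor FZD1 had 1.94 to 3.42 FPKM over the 6 colony libraries, against 8.56 and 7.42 FPKM in DMSO (-1.38 ± 0.07). In the whole Wnt list 2 of 15 genes were shared higher and 1 lower, near the shares of all tested genes. Of 5 Hedgehog genes tested, 1 was shared higher and 2 lower. GLI2, a transcription factor of the pathway, had 5.15 and 5.11 FPKM in BR8, 2.65 and 3.54 FPKM in BR10 and 6.81 and 7.58 FPKM in BR16, against 1.04 and 0.896 FPKM in DMSO (1.58 ± 0.09). Its relative GLI3 differed by -0.37 in BR8, -0.56 in BR10 and -1.23 in BR16 and was not shared without BR8 replicate 1. PTCH1†, a Hedgehog target, differed by 0.07 in BR8, 0.42 in BR10 and 0.36 in BR16 and was not shared.

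Of 21 DNA and histone methylation enzymes, 2 were shared higher, near the 10.4% of all tested genes, and 5 lower, beside 9.45%. DNMT1†, which copies methylation after replication, had 14.7 and 14.4 FPKM in BR8, 14.8 and 17 FPKM in BR10, 16.8 and 14.8 FPKM in BR16 and 4.36 and 4.15 FPKM after 24 h of BLU667, against 33.2 and 28.2 FPKM in DMSO (-0.95 ± 0.09), and UHRF1, which guides it, had 19.3 to 23.5 FPKM over the 6 colony libraries, against 38.5 and 34.5 FPKM in DMSO (-0.77 ± 0.07). EZH2, the methylase of H3K27, differed by -0.99 in BR8, -0.27 in BR10 and -0.93 in BR16. KDM5B, an H3K4 demethylase, was shared higher (0.47 ± 0.07).

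**Figure D4:**
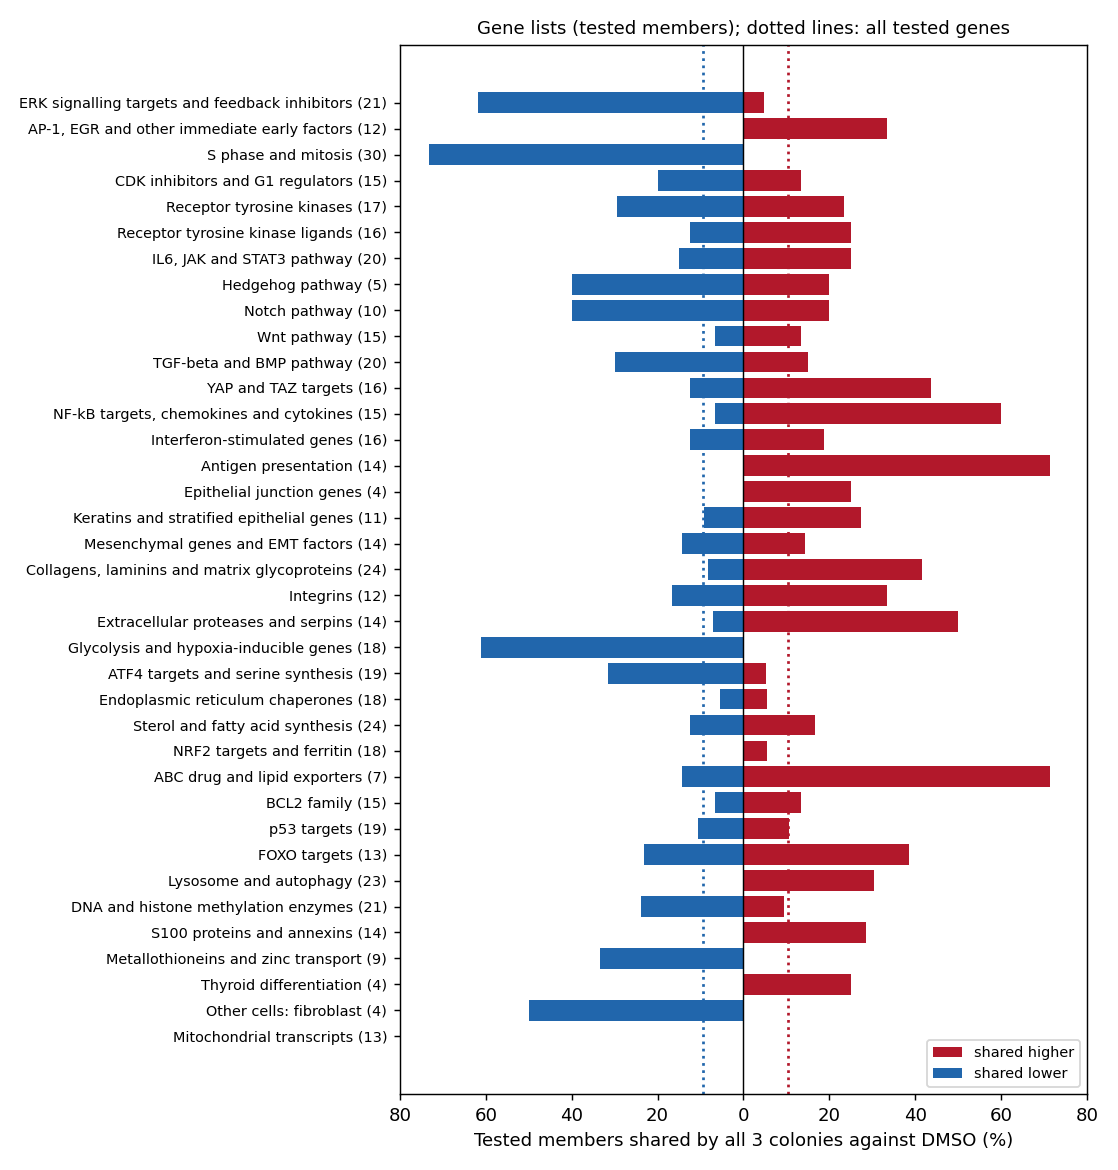
Percent of the tested members of each gene list (number tested in brackets) that all 3 colonies shared higher (right, red) or lower (left, blue) against DMSO, with dotted lines at 10.4% and 9.45% for all tested genes. S phase and mitosis, ERK targets and glycolysis reach farthest to the left, and antigen presentation, ABC exporters and NF-kB targets farthest to the right.

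Some genes had no reads in any colony library, among them a metallothionein. Of 9 metallothionein and zinc transport genes tested, 3 were shared lower and none higher. MT1E, a metallothionein that binds zinc and copper, had 0 reads in all 6 colony libraries, 902 and 1087 reads after 24 h of BLU667 and 222 and 316 reads in DMSO. With a floor of 3 reads over the colonies it was at least 571-fold lower than in DMSO. Metallothionein genes are near-identical, and reads could be split among them. MT1X† differed by 1.36 in BR8, 1.35 in BR10 and 0.67 in BR16 and MT2A, a further isoform, by 0.27 in BR8, 0.48 in BR10 and -0.47 in BR16, neither of them shared. The zinc exporter SLC30A1, a target of the same zinc-sensing factor, was shared lower with 14 to 18.4 FPKM over the 6 colony libraries, against 29.6 and 39.3 FPKM in DMSO (-1.01 ± 0.11), and the zinc importer SLC39A14 with 9.39 to 15.4 FPKM over the 6 colony libraries, against 30.5 and 32.8 FPKM in DMSO. Further protein-coding genes with 0 reads in all colony libraries included SMIM10, which had 3.30 and 3.62 FPKM in DMSO, EMC10†, with 3.04 and 2.52 FPKM in DMSO, FOXA2†, a factor of endoderm, with 1.64 and 1.46 FPKM in DMSO, and CHST1†, a sulfotransferase, with 1.63 and 1.55 FPKM in DMSO. In the opposite direction, VTCN1, the immune checkpoint ligand B7-H4, had 5.64 and 6.06 FPKM in BR8, 4.05 and 3.44 FPKM in BR10 and 6.10 and 6.98 FPKM in BR16, against 0 reads in both DMSO libraries. PPP1R14C, an inhibitor of protein phosphatase 1, had 6.16 and 5.71 FPKM in BR8, 6.58 and 6.47 FPKM in BR10 and 2.86 and 2.46 FPKM in BR16, and MAF, a bZIP factor, had 0.923 to 3.11 FPKM over the colony libraries, both against 0 reads in DMSO. These genes were chosen because a group was at 0.

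Chromosome 8 had the highest share of shared falls of all chromosomes. Of its 517 tested genes, 164 were shared lower (31.7%), beside 8.59% of the 13410 tested genes elsewhere, and 34 were shared higher (6.58%). The median difference of all its tested genes was -0.34 in BR8, -0.36 in BR10 and -0.40 in BR16, and 74.1% of them were below 0 in the colony mean, beside 53% of all tested genes. In windows of 10 Mb with at least 20 tested genes (255 in all), the stretch from 10 to 50 Mb held the highest shares of shared-lower genes, 52.3% to 59.6% in its 4 windows. That stretch, chosen after seeing the data, held 156 tested genes, of which 89 were shared lower (57.1%), with a median of -0.65. Away from chromosome 8 the highest window had 30.0%, at 110 to 120 Mb of chromosome 10. After 24 h of BLU667 the medians of the 4 windows were -0.40 to 0.15. Named genes on this chromosome included the GTPase-activating protein DLC1 (-0.94 in BR8, -0.64 in BR10 and -0.84 in BR16), SLC39A14 (-1.11 in BR8, -1.58 in BR10 and -1.36 in BR16) and TNFRSF10B (-0.99 in BR8, -1.18 in BR10 and -1.06 in BR16), and, among the rises, NOV and SNAI2. In the other settings that kept both libraries of each group, 50% to 68.8% of the stretch was shared lower, beside 3.94% to 17.2% of all tested genes. The 68.8% was with at least 5 FPKM, where 96 genes of the stretch were tested. Where a colony was left out, shared refers to the remaining colonies. Leaving out single libraries gave medians of -0.64 to -0.70 for the stretch. DNA copy number was not analysed here.

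**Figure D5:**
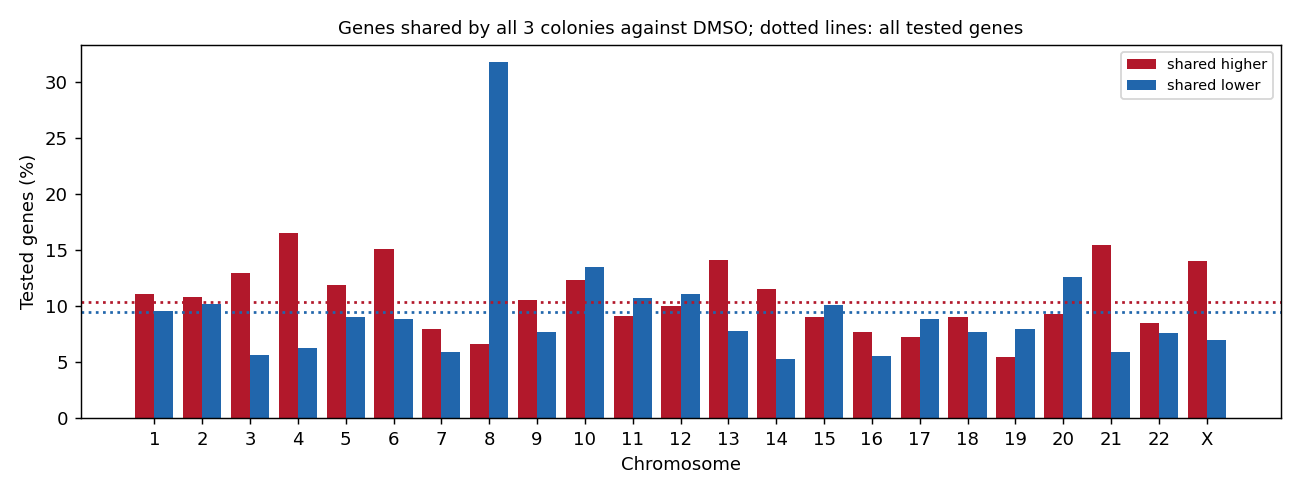
Percent of the tested genes of each chromosome that all 3 colonies shared higher (red) or lower (blue) against DMSO, with dotted lines at 10.4% and 9.45% for all tested genes. Chromosome 8 has 31.7% shared lower, and the next highest bar is the 16.5% shared higher on chromosome 4.

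The colonies were not alike even where they shared a direction. Among the colonies, 58.1% of tested genes differed at an adjusted p below 0.05 (limma's moderated F test), and so did 911 of the 1452 shared-higher and 765 of the 1316 shared-lower genes. The range of the 3 colony changes stayed under 1 log2 unit for 1236 of the shared-higher and 1194 of the shared-lower genes. BR8 had the most called genes (51.3% of those tested), then BR16 (45.5%) and BR10 (40.8%). A further 534 genes were called in opposite directions in 2 colonies. The widest of the named ones was FN1, fibronectin, with 20.3 and 21.9 FPKM in BR8, 375 and 380.3 FPKM in BR10 and 345 and 331 FPKM in BR16, against 121 and 127 FPKM in DMSO; BR8 was far below DMSO and both other colonies above it. VAMP8, a SNARE protein of vesicle fusion, had 0.115 and 0.3 FPKM in BR8, 11.6 and 11.3 FPKM in BR10 and 5.91 and 6.55 FPKM in BR16, against 4.41 and 3.32 FPKM in DMSO, and COL18A1†, a basement membrane collagen, had 6.28 and 4.56 FPKM in BR8, 5.76 and 7.62 FPKM in BR10 and 40.3 and 40.5 FPKM in BR16, against 18.8 and 12.2 FPKM in DMSO, with BR16 alone above DMSO. Of 13 mitochondrial transcripts, none was shared in all 3 colonies, though 9 were called lower in the mean. MT-ND1, a subunit of complex I, had 1053 and 665 FPKM in BR8, 947 and 1137 FPKM in BR10 and 3969.9 and 3569 FPKM in BR16, against 2759 and 3437 FPKM in DMSO, so that BR8 and BR10 were low and BR16 was not. Mitochondrial reads made up 3.23% to 3.64% of reads in BR8 and BR10, 5.31% and 5.52% in BR16 and 4.65% and 5.33% in DMSO, and the part of this share in other results was not tested.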

How the data were processed

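TPC-1 RNA was measured by non-directional RNA-seq in 10 libraries, 2 per group. Per the submitters' processing notes, the tools were CASAVA, STAR 2.5, HTSeq 0.6.1 and DESeq2 (version given as 2) with GRCh38 (hg38); the sources used here do not give their parameters or the annotation release. FPKM values were deposited by the authors for 58735 genes. The product of FPKM and gene length was divided by the value of 1 read, fitted in each library from the same values. The quotient was within 0.05 of a whole number in 100% of values, which gave depths of 15243703 to 21904245 reads in genes. Their number limits the precision of low genes.

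Genes with at least 1 FPKM in at least 2 libraries (13927) were tested on log2(FPKM + 1) with limma 3.58.1 in R 4.3.3. All 5 groups shared 1 fit, which had 5 residual degrees of freedom and let the variance depend on the mean level. P-values were two-sided and adjusted over all tested genes by the Benjamini-Hochberg method. The 3 colonies were weighted equally, and a gene was shared when each colony passed at 0.05 with the same sign. The colonies were set against each other with limma's moderated F test. The script was tested on simulated data.

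The gene lists (41, with 736 members, 560 of them tested) and all members were chosen with earlier results of these data known, so list counts are descriptions. Genes were named by rule, with RET, CCDC6, TERT and CDKN2A named whatever their values. Among protein-coding genes with a mean of at least 1 FPKM in DMSO or in every colony, shared changes were ranked by the smallest-colony change. The 14 largest rises and the 14 largest falls were named. Each list gave up to 4 shared members, or called members with the largest change where none was shared. Of genes called in opposite directions in different colonies, 4 were named, ranked by the smaller of the opposing changes. Some genes that the rule names are not reported here. Other list members, the genes at 0 in a group and the chromosome 8 stretch were picked after their values were seen. Overlap of exons and GC content came from GENCODE release 29, and promoters from RefSeq (GRCh38.p14). Folds against 0 reads used a floor of 3 reads over the group and cover counting error only.

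Alternatives were pseudocounts of 0.1 and 0.25, no filter, at least 5 FPKM, median-of-ratios and quantile scaling, loess correction for GC content within libraries (span 0.3), only the groups compared, a replicate block, no variance trend, voom on the recovered reads, each library and each colony left out, colony means as replicates, an absolute log2 change of at least 1 and a rule of no overlap. Where leaving out a library left a group with 1 library, that library was assumed to vary like the others. Replicate numbers are shared by the groups, but nothing in the labels pairs them. Figures were drawn with matplotlib 3.10.9.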

Additional observations from a re-analysis of the deposited data

Results flagged for a closer look

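Of 153 named genes tested, 113 differed among the 3 colonies by limma's moderated F test, and the 13 whose colony changes from DMSO spanned at least 2 log2 units are given here with that span. FN1 spanned 4.10 log2 units, with -2.50 in BR8, 1.60 in BR10 and 1.44 in BR16 (adjusted p 3.55e-06), VAMP8 3.37 (-2.01 in BR8, 1.37 in BR10 and 0.58 in BR16) and COL18A1† 2.70 (-1.35 in BR8, -1.08 in BR10 and 1.36 in BR16), and each of these 3 genes was higher than DMSO in some colonies and lower in others. The mitochondrial tRNA gene MT-TC† spanned 3.92 (-2.07 in BR8, -0.86 in BR10 and 1.85 in BR16); its DMSO libraries also differed, with 1245 and 356 FPKM, and its BR16 change was not called with no filter or without either BR16 library, nor its BR8 change without BR8 replicate 1. MT-ND1 spanned 2.17 (-1.88 in BR8, -1.57 in BR10 and 0.29 in BR16).

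Among genes that all colonies shared higher, EDN2 spanned 3.17 (6.19 in BR8, 3.64 in BR10 and 6.82 in BR16), TGFBI 2.81 (4.10 in BR8, 1.29 in BR10 and 2.39 in BR16), COL4A1 2.14 (3.43 in BR8, 1.42 in BR10 and 3.56 in BR16) and IGFBP7† 2.07 (5.28 in BR8, 3.21 in BR10 and 4.98 in BR16), each with BR10 the lowest. Among the shared falls, KRT81 spanned 3.02 (-5.46 in BR8, -2.44 in BR10 and -3.73 in BR16), NT5E 2.22 (-3.41 in BR8, -2.20 in BR10 and -4.42 in BR16), CA12 2.18 (-4.30 in BR8, -2.12 in BR10 and -3.90 in BR16) and TGM2† 2.02 (-5.19 in BR8, -3.16 in BR10 and -4.90 in BR16), each with the smallest fall in BR10. The causes of these differences between colonies were not tested.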

How the results depend on the processing

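The 6848 called genes became 1540 with the colony means as 3 replicates and 1242 with an absolute log2 change of at least 1. The 2768 shared genes became 552 with that change in each colony, 4403 when BR16 was left out of the rule and 4599 when the colony mean had to be called and libraries must not overlap. Leaving out each library gave 6044 to 6445 called and 2100 to 2817 shared genes. Without DMSO replicate 1, 2817 genes were shared and 2291 of the 2768 remained; without DMSO replicate 2, 2662 were shared and 2245 remained. Removing the GC trend gave 7595 called and 3675 shared genes, of which 1761 were higher and 1914 lower.

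The replicate block gave 6501 called and 2546 shared genes. Deviations of same-numbered libraries correlated at -0.16 to 0.11 over all groups, above 0.1 in 0 of 6 pairs among the colonies and DMSO. With 2 libraries per group, these correlations cannot tell whether same-numbered libraries were handled together. Under the block CDK4†, HERPUD1 and XPC† were no longer shared, and no named gene lost its call in the colony mean. In 3645 settings of named genes, 3606 kept their direction and side of the threshold, 38 were no longer called, 1 was newly called and none changed sign. Of 874 medians, those of the lists and of the chromosome 8 stretch, 822 moved by less than the spread of the colonies and 52 by more. The sign changed in 37, all of them list medians. Of 146 named shared genes, 121 were kept in every setting, of 19, in which the gene was tested. Adding 1 FPKM and 2 libraries per group limit what low genes can show.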

Other observations

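Some windows held many shared rises, beside 10.4% of all tested genes, and were picked after their values were seen. The highest share was 33.3%, at 120 to 130 Mb of chromosome 5 (7 of 21) and at 70 to 80 Mb of chromosome 8. That chromosome 8 window had 10 of 30 genes shared higher and 4 lower. At 10 to 20 Mb of chromosome 6, 14 of 43 were shared higher (32.6%). Of 79 tested genes at 20 to 30 Mb of chromosome 6, 23 were shared higher (29.1%) and 3 lower, with a median of 0.34, and of 33 at 110 to 120 Mb of chromosome 3, 10 were shared higher (30.3%) and 0 lower. The median at 20 to 30 Mb of chromosome 6 was 0.46 after 24 h of BLU667. On chromosome 10, the 3 windows from 100 to 130 Mb had 25% to 30.0% of their genes shared lower, beside 9.45% of all tested genes.

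Noncoding genes that were listed at 0 in both DMSO libraries included LINC01593, with 4.55 and 4.44 FPKM in BR8, 1.75 and 1.36 FPKM in BR10 and 1.90 and 2.61 FPKM in BR16, and LINC01508, with 1.24 to 2.68 FPKM over the 6 colony libraries and 0 FPKM after 24 h of BLU667. Weaker shared changes that depended on the settings included BTG2, an antiproliferative p53 target, with 5.96 to 9.21 FPKM over the 6 colony libraries, against 4.89 and 5.16 FPKM in DMSO, which was not shared without DMSO replicate 1, BR8 replicate 1 or either BR16 library or with voom, and FASN, fatty acid synthase, with 23.3 to 36.8 FPKM over the 6 colony libraries, against 56.9 and 44.6 FPKM in DMSO, which was not shared without DMSO replicate 1, BR10 replicate 1 or either BR16 library, with no filter or with the GC trend removed. Neither was called with the colony means as replicates (adjusted p 0.144 for BTG2 and 0.0656 for FASN, limma).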
